A study of Bos taurus with 12 samples.

Results

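Loci MSTRG.8734 and MSTRG.8735 are a pair of bovine lncRNA loci with consecutive numbers in the authors' transcript assembly. They were chosen by their measured FPKM, as loci low before and soon after adipogenic induction and high late, so their pattern over the days is given here as a description. Of the 7035 lncRNA transcripts in the deposited table, 20 belong to them, 19 to locus MSTRG.8734 and 1 to locus MSTRG.8735. The cells were intramuscular preadipocytes, the precursors of fat cells, taken from the longissimus dorsi of Qinchuan calves at birth. RNA was sequenced at 0 d (uninduced) and at 3, 6 and 9 d after induction, with 3 biological replicates for each day and 12 libraries in all. The paper does not state how many calves the replicates came from. Whether the spread between them is one between animals or only between cultures is therefore not known. Induced cells received IBMX, dexamethasone and insulin for 48 h and then insulin alone. The deposited unit is FPKM (fragments mapped to a transcript, scaled to its length in kilobases and to the mapped fragments of the library), which holds no counts, and the depth behind a single value is unknown.

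Long noncoding RNAs are transcripts with little or no capacity to encode protein, and many are made only in certain cell types or stages. Some act on neighbouring genes, others act elsewhere in the nucleus or cytoplasm, and for most no role is known. During adipogenesis preadipocytes leave the fibroblast-like state, take up and make fatty acids and store them as triglyceride, and several lncRNAs have been described as regulators of that course in cattle and other mammals.

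Locus MSTRG.8735 had 2.21, 2.1 and 2.07 FPKM in the 0 d libraries and 0.47, 0.44 and 0.56 in those of 3 d. At 6 d its values were 59.9, 63.6 and 58.2 FPKM, and at 9 d they were 116, 122 and 95.8. The days did not overlap at this locus, and their order from low to high was 3 d, 0 d, 6 d and 9 d. The summed transcripts of locus MSTRG.8734 gave 0.30, 1.21 and 0.75 FPKM at 0 d and 0.18, 0.18 and 0.12 at 3 d. At 6 d the sum was 23.1, 24.0 and 22.2 FPKM, and at 9 d it was 48.2, 36.6 and 32.9. Here too the days kept apart in the same order, with the widest relative spread among the 0 d libraries. In bulk RNA, fewer cells of a type and less RNA per cell cannot be told apart, so these values do not show how many cells held the transcripts.

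**Figure D1:**
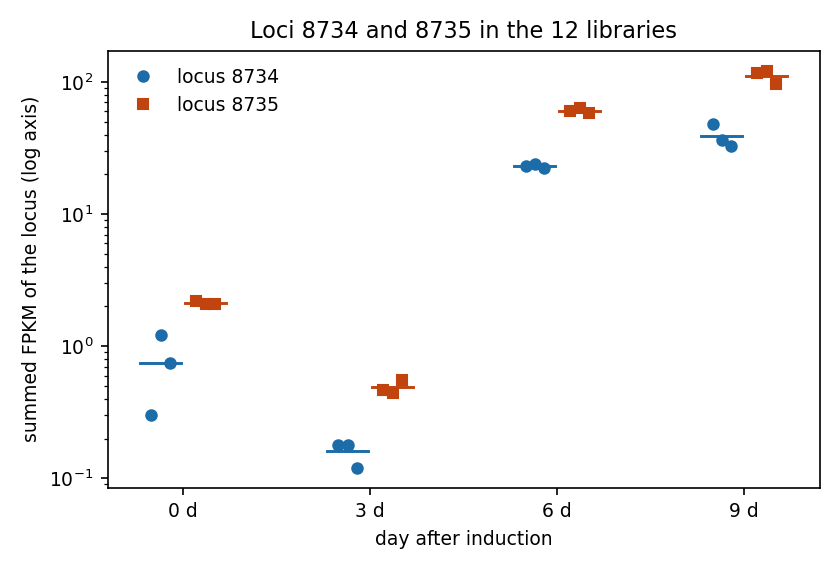
Summed FPKM of loci MSTRG.8734 and MSTRG.8735 (log axis) by day, with 1 point for each library and a bar at the mean of the 3 replicates. Locus MSTRG.8735 lay between 0.44 and 0.56 FPKM at 3 d and between 95.8 and 122 at 9 d, and locus MSTRG.8734 followed the same order of days at lower values.

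As means with their SD (n = 3), locus MSTRG.8735 had 2.13 ± 0.0737 FPKM at 0 d, 0.49 ± 0.0624 at 3 d, then 60.6 ± 2.74 at 6 d, and 111 ± 13.6 at 9 d. Locus MSTRG.8734 had 0.753 ± 0.455, 0.16 ± 0.0346, 23.1 ± 0.945 and 39.2 ± 8.0 FPKM on the same days. The mean of 0 d was 4.34 times that of 3 d at locus MSTRG.8735 and 4.71 times at locus MSTRG.8734. Every 3 d library was below every 0 d library at both loci, and for MSTRG.8734 all of these values were at or under 1.21 FPKM, where the log2 change depends on the pseudocount (-1.56 with 0.1 and -0.56 with 1). At locus MSTRG.8735 the log2 change was -1.92 with a pseudocount of 0.1 and -1.07 with 1. From 0 d to 9 d the means rose 52.3-fold at locus MSTRG.8735 and 52.1-fold at locus MSTRG.8734.

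Among the 6214 lncRNA loci of a library, ranked from the highest FPKM, locus MSTRG.8735 stood at 799, 1203 and 742 at 0 d and at 5077, 4691 and 4299 at 3 d. It was at 34, 30 and 29 at 6 d and at 20, 17 and 23 at 9 d. Locus MSTRG.8734 was at 4951, 2916 and 2615 before induction, at 5521, 5351 and 5517 at 3 d, then at 65, 61 and 69 at 6 d and 34, 39 and 44 at 9 d. Both loci thus had their lowest ranks at 3 d and stood near the top of the table in every late library. Together they held 0.00363% to 0.00658% of the lncRNA FPKM of a library at 0 d and 0.268% to 0.318% at 9 d. Locus MSTRG.8735 had 2.60, 2.65 and 2.63 times the FPKM of locus MSTRG.8734 at 6 d and 2.40, 3.33 and 2.91 times at 9 d. That ratio was nearly the same in the 6 d libraries and spread more widely at 9 d.

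The late days were compared, 9 d with 6 d, in a limma fit over all 6145 lncRNA loci with a mean FPKM of at least 0.1. A call needs an absolute log2 fold change over 1 on the log2(FPKM + 0.1) scale and a Benjamini-Hochberg adjusted p under 0.05. The loci were chosen with their FPKM on all 4 days known, 6 d and 9 d included, so the values of this fit describe the late difference and its spread and are no independent test. At this pair of days 2.47% of the loci were called in either direction, and neither locus was among them. Locus MSTRG.8735 was 0.87 higher at 9 d on the log2 scale (95% interval 0.57 to 1.16, limma adjusted p = 0.00698), with each of the 3 libraries of 9 d above each of 6 d, and it missed the call on size. Locus MSTRG.8734 was 0.74 higher (interval -0.01 to 1.50, limma adjusted p = 0.361), also with 3 of 3 libraries of 9 d above those of 6 d. The difference at locus MSTRG.8734 was thus not resolved from the spread, and its interval reaches from no change to a log2 change of 1.50. Over all tested loci the median log2 change was -0.11, and a rescaling of libraries by median ratio moved it by 0.11, with the higher share of all calls going from 41.4% to 53.1%. After that rescaling the differences were 0.99 at locus MSTRG.8735 (limma adjusted p = 0.0278) and 0.87 at locus MSTRG.8734 (limma adjusted p = 0.177).

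The 6 transcripts with the highest mean over all libraries were MSTRG.8735.1, which is the whole of locus MSTRG.8735, and MSTRG.8734.1, MSTRG.8734.6, MSTRG.8734.15, MSTRG.8734.16 and MSTRG.8734.3. Transcript MSTRG.8734.1 was listed at 0, 0.60 and 0 FPKM at 0 d and at 0 in all 3 libraries of 3 d. At 6 d it had 4.58, 7.33 and 6.85 FPKM and at 9 d 18.6, 11.7 and 10.7. It was the leading transcript of the locus in every 9 d library and in replicates 2 and 3 of 6 d, without overlap between 6 d and 9 d. Transcript MSTRG.8734.6 was listed at 0 in every library of 0 d and 3 d and had 5.30, 5.61 and 1.62 FPKM at 6 d and 1.94, 3.39 and 1.76 at 9 d. Unlike the sum of the locus, it was not higher at 9 d, and the late days overlapped.

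Transcript MSTRG.8734.15 had 0.17, 0.14 and 0.11 FPKM at 0 d and 0, 0.02 and 0 at 3 d. Its late values were 2.90, 2.43 and 2.01 FPKM at 6 d and 4.09, 4.16 and 2.62 at 9 d. It was thus above 0 in every 0 d library and nearly absent at 3 d, as was MSTRG.8734.11 at 0.02 to 0.04 FPKM, while 10 of the others were at 0 on both early days. Transcripts MSTRG.8734.16 and MSTRG.8734.3 were listed at 0 in all libraries of 0 d and 3 d. For MSTRG.8734.16 the late values were 1.93, 0.94 and 2.53 FPKM at 6 d and 4.27, 3.29 and 2.88 at 9 d. For MSTRG.8734.3 they were 0.10, 1.73 and 2.88 FPKM at 6 d and 3.30, 4.75 and 2.19 at 9 d. The late days kept apart for MSTRG.8734.16 and overlapped for MSTRG.8734.3, whose first 6 d library was far below the others.

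**Figure D2:**
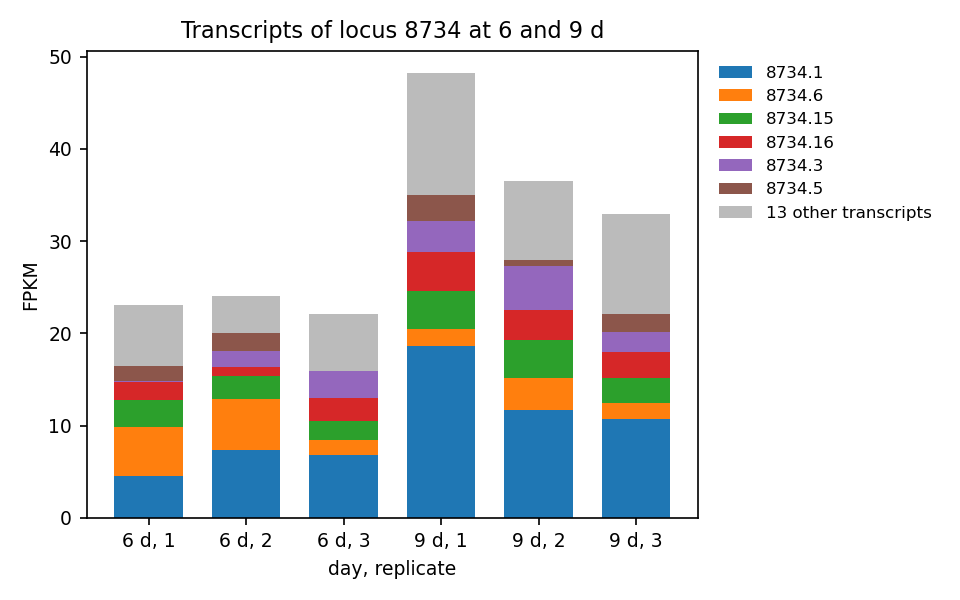
FPKM of the transcripts of locus MSTRG.8734 in the 6 libraries of 6 d and 9 d, stacked to the sum of the locus, with the 13 less abundant transcripts in grey. The 6 d bars reach nearly the same height (22.2 to 24.0 FPKM), while the parts within them differ between replicates.

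The shares of locus MSTRG.8734 are parts of its summed FPKM, as deposited for each transcript model. They depend on how fragments were assigned among the models, which was not tested here, and they are less certain than the sum. Transcript MSTRG.8734.1 held 27.1% ± 6.27 of the locus at 6 d and 34.4% ± 3.58 at 9 d (SD, n = 3). Transcript MSTRG.8734.6 held 17.9% ± 9.15 at 6 d, from 7.31% to 23.3%, and 6.21% ± 2.73 at 9 d. Shares of MSTRG.8734.15 were 10.6% ± 1.80 and 9.27% ± 1.84, and those of MSTRG.8734.16 were 7.90% ± 3.78 and 8.87% ± 0.122. The mean shares of these last transcripts thus lay close together on both late days. The sum of the locus had a coefficient of variation between replicates of 4.09% at 6 d and 20.4% at 9 d. Among its transcripts with a mean of at least 1 FPKM, that of the FPKM ran from 18.2% to 89.0% for 7 at 6 d and from 20.5% to 88.3% for 9 at 9 d. A sum varies less than its parts do on average by construction, so nothing is read from that difference.

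On the early days the locus MSTRG.8734 sum rested on few models. Of its 19 transcripts, 5 were above 0 in each library of 0 d and 1 to 3 at 3 d, against 15 to 17 in the 6 d libraries and 16 to 18 at 9 d. The leading transcript differed from library to library at 0 d, being MSTRG.8734.15 with 0.17 FPKM, MSTRG.8734.1 with 0.60 and MSTRG.8734.2 with 0.39. At 3 d the leading ones were MSTRG.8734.2 with 0.13 FPKM in replicates 1 and 2 and MSTRG.8734.5 with 0.12 in the third. The early leader was thus not the same in all 3 replicates of either day.

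Of the remaining 14 transcripts, all of locus MSTRG.8734, 11 peaked in a library of 6 d or 9 d at 0.54 to 4.35 FPKM and had at most 0.30 FPKM on the early days. Transcript MSTRG.8734.18 was above 0 in only 3 libraries, with 0.08 FPKM in the first of 0 d, 1.81 in the third of 6 d and 0.59 in the second of 9 d. Transcripts MSTRG.8734.2 and MSTRG.8734.12 stayed at or under 0.39 and 0.20 FPKM in every library and did not share the late rise. Both fell short of the mean of 0.1 FPKM, so 18 of the 20 members were tested, and a member that passed through its late values alone had to differ from 0 d.

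Counts of called members are set beside those of all 6906 tested lncRNA transcripts, and since the members were chosen on this pattern, nothing is read from the comparisons with 0 d, which also share the 0 d libraries. At 3 d vs. 0 d 2 of 18 were called, MSTRG.8735.1 and MSTRG.8734.15, both lower. Of all transcripts 23.3% were called in either direction, with 14.9% higher. Of the 18, 10 were listed at 0 on both days. At 6 d vs. 0 d 9 were called, all higher, beside 6.37% of all transcripts in either direction and 3.11% higher. At 9 d vs. 0 d 14 were called, all higher, beside 6.79% in either direction and 2.95% higher. At 9 d vs. 6 d limma called 0 of 18 beside 1.91% of all transcripts. Without adjustment 5 of the 18 had a p under 0.05, all higher at 9 d, and 13.5% of all transcripts did. All but 1 of the 18 are models of the same locus, and the choice of members drew on the late days, so nothing is read from these counts either.

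The shift of the whole table bears on these counts. The median log2 change of all lncRNA transcripts was 0.30 at 3 d vs. 0 d, -0.14 at 6 d vs. 0 d and -0.25 at 9 d vs. 0 d, and rescaling by the median ratio moved it by -0.30, 0.14 and 0.24. Of all called transcripts 63.8% were higher at 3 d and 43.5% at 9 d vs. 0 d, and after rescaling 45.3% and 64.2%. Relative to that shift both loci lay further from 0 d on each day. Rescaled, their log2 changes were -2.22 and 5.92 for locus MSTRG.8735 and -1.77 and 5.95 for locus MSTRG.8734 at 3 d and 9 d vs. 0 d, in place of -1.92, 5.64, -1.56 and 5.67.

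Within 3 numbers of the pair the table lists MSTRG.8731, MSTRG.8732, MSTRG.8733 and MSTRG.8736, which were picked by number and not by level; how far they lie from the pair in the genome was not analysed here. At 3, 6 and 9 d vs. 0 d, 26.2%, 7.4% and 7.88% of the 6145 tested loci were called in either direction. Locus MSTRG.8736 had 0.48, 0.41 and 0.37 FPKM at 0 d, 0.06, 0.06 and 0.05 at 3 d, then 5.78, 5.61 and 1.68 at 6 d, and finally 7.74, 8.59 and 7.73 at 9 d. It fell at 3 d (log2 -1.73, limma adjusted p = 0.00574) and rose at 6 d (log2 2.92, limma adjusted p = 0.000884) and 9 d vs. 0 d (log2 3.97, limma adjusted p = 0.000179), with 3 of 3 libraries on that side each time. This is the order of days seen at the pair, at a lower level, and the third 6 d library was the low one. With a pseudocount of 1 the fall at 3 d was no longer called (log2 -0.43, limma adjusted p = 0.272).

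Locus MSTRG.8731 had 0.06, 0.13 and 0.02 FPKM at 0 d, was listed at 0 in every 3 d library, and had 0.16, 0.08 and 0.13 at 6 d and 1.21, 1.31 and 0.65 at 9 d. It rose at 9 d vs. 0 d (log2 2.76, limma adjusted p = 0.00357) and at 9 d vs. 6 d (log2 2.34, limma adjusted p = 0.0202), each in 3 of 3 libraries. The locus passed the filter on low values through its 9 d libraries, and with no such filter both changes were still called (limma adjusted p = 0.00235 and 0.0149). The call at 9 d vs. 6 d was lost without replicate 2 of 6 d (adjusted p = 0.073), replicate 1 of 9 d (0.0947) or replicate 2 of 9 d (0.0633). It was also lost with a pseudocount of 0.01 (log2 2.98, limma adjusted p = 0.0953).

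Locus MSTRG.8732 had 0.25, 0.14 and 0 FPKM at 0 d, was listed at 0 at 3 d, and had 0.66, 1.23 and 0.93 at 6 d and 0.82, 0.82 and 0.23 at 9 d. It rose at 6 d vs. 0 d (log2 2.32, limma adjusted p = 0.0258), a call lost without replicate 3 of 0 d (adjusted p = 0.0593), replicate 2 of 6 d (0.0979) or replicate 3 of 6 d (0.0726). With a pseudocount of 0.01 (log2 3.66, limma adjusted p = 0.0762) or only the 6 libraries compared (log2 2.32, limma adjusted p = 0.0783) that call was lost as well. This locus passed the filter through its late libraries, and with no filter the change was still called (limma adjusted p = 0.024). At 9 d vs. 0 d its log2 change of 1.69 was not called (limma adjusted p = 0.0842), and without replicate 3 of 9 d it was (log2 2.18, limma adjusted p = 0.0469), as it was after rescaling (log2 1.97, limma adjusted p = 0.0332). Locus MSTRG.8733 had 0.23, 0.05 and 0.05 FPKM at 0 d, 0.17, 0.05 and 0.05 at 3 d, then 0.52, 0.37 and 0.72 at 6 d, and lastly 0.78, 0.71 and 1.21 at 9 d. It was called at 9 d vs. 0 d (log2 2.32, limma adjusted p = 0.00916) and at 6 d vs. 0 d (log2 1.67, limma adjusted p = 0.0427), but the latter call was kept in only 2 of 12 fits that each left out 1 library, those without replicate 1 of 0 d or replicate 1 of 3 d, and lost without any other library (adjusted p from 0.0265 to 0.133 over the 12). The call of MSTRG.8733 at 6 d vs. 0 d was also lost with a pseudocount of 0.01 (log2 2.47, limma adjusted p = 0.0596). Only the 6 libraries compared lost it too (log2 1.67, limma adjusted p = 0.104). With a pseudocount of 1 the changes of MSTRG.8731, MSTRG.8732 and MSTRG.8733 were all under a log2 of 1.

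The assembly's transcript identifiers run without a gap over 35 lncRNA transcripts of 15 loci, from MSTRG.8720 to MSTRG.8731 and from MSTRG.8734 to MSTRG.8736, and the 20 members are among them. The loci of this run from MSTRG.8720 to MSTRG.8730 were added after their values had been seen, and they were not tested. Locus MSTRG.8720 had 15.5, 19.3 and 8.90 FPKM at 0 d, 0.26, 0.17 and 0.19 at 3 d, then 17.5, 18.0 and 11.8 at 6 d, and finally 22.5, 20.2 and 17.6 at 9 d. Loci MSTRG.8721, MSTRG.8723 and MSTRG.8724 likewise had means of 2.64, 4.58 and 5.05 FPKM at 0 d, 0.05, 0.08 and 0.133 at 3 d, then 4.86, 6.22 and 5.57 at 9 d. These 4 loci were lowest at 3 d, like MSTRG.8734 and MSTRG.8735, and their means at 0 d were nearer to those at 9 d than at the pair. Loci MSTRG.8725, MSTRG.8726 and MSTRG.8727 were at or under 0.43 FPKM in every early library and at or above 0.76 in every late one. Loci MSTRG.8728 to MSTRG.8730 resembled MSTRG.8731, with at most 0.24 FPKM at 6 d and at least 0.57 at 9 d. Locus MSTRG.8722 was above 0.05 FPKM in a single library, with 1.59 in the second of 0 d.

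**Figure D3:**
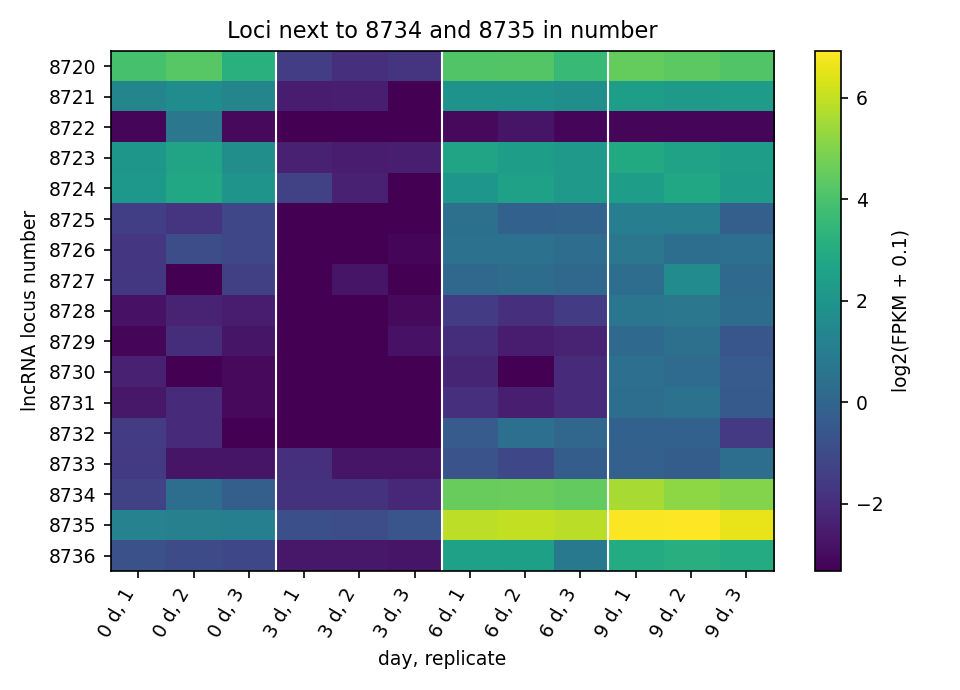
The log2(FPKM + 0.1) of lncRNA loci MSTRG.8720 to MSTRG.8736 (rows) in the 12 libraries (columns, grouped by day), as a colour scale. Locus MSTRG.8735 has the highest late values (up to 122 FPKM), and at 3 d most loci of the run are at or near the lowest colour.

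Likeness to the summed FPKM of both loci was measured by Pearson r over the 12 libraries on log2(FPKM + 0.1), among the 11331 mRNAs with a mean of at least 1 FPKM. It is a description, with no test, and as libraries of a day lie close together, r reflects mainly the means of 4 days. The 10 mRNAs most like the loci were UPK1B, ERRFI1, UGP2, CLEC3B, C1QTNF3, GPX8, CSF2RB, TBC1D1, CYP7B1 and ANXA5, with r from 0.974 to 0.996. In all, 161 mRNAs (1.42%) had an r over 0.9. With the mean of each day removed, the r of the 10 ran from -0.647 to 0.730, so that within days they did not follow the loci as a group.

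UPK1B, a tetraspanin known from the bladder lining, had 5.17, 5.59 and 6.45 FPKM at 0 d, 3.25, 3.02 and 3.11 at 3 d, then 33.1, 33.6 and 33.6 at 6 d, and lastly 34.2, 37.8 and 36.8 at 9 d. ERRFI1, a feedback inhibitor of the EGF receptor, had 27.2, 31.5 and 26.7 FPKM at 0 d and 13.6, 13.5 and 15.2 at 3 d. It reached 136, 155 and 139 FPKM at 6 d and 278, 256 and 252 at 9 d. For both mRNAs every 9 d library was above every 6 d library, although UPK1B was nearly level between those days. C1QTNF3, a secreted protein of the C1q and TNF related family made by fat cells, had 4.76, 4.50 and 4.46 FPKM at 0 d and 0.54, 0.79 and 0.80 at 3 d, and 45.4, 47.6 and 44.4 at 6 d. At 9 d it had 47.2, 51.2 and 51.1 FPKM. Its drop at 3 d was nearer in size to that of the loci than that of UPK1B or ERRFI1.

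The rest of the 10 were lowest at 3 d as well. Mean FPKM at 3 d and 9 d were 101 and 276 for UGP2, which makes the UDP-glucose used for glycogen, and 1.99 and 14.3 for CLEC3B, the plasminogen-binding protein tetranectin. They were 8.15 and 16.6 for GPX8, a peroxidase of the endoplasmic reticulum, and 0.0933 and 5.42 for CSF2RB, the shared beta subunit of several cytokine receptors. For TBC1D1, which acts in glucose transporter traffic, they were 2.75 and 10.8, for the oxysterol hydroxylase CYP7B1 81.2 and 281, and for annexin ANXA5 283 and 1017. CLEC3B had its highest mean at 6 d, with 15.1 FPKM, so it did not have the order of days of the loci. The means of these 7 mRNAs at 9 d ran from 5.42 to 1017 FPKM.

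Most opposite to the loci were MEGF10, EPHB4, SLC23A2, TSPYL4 and ID3, with r from -0.995 to -0.989. MEGF10, an engulfment receptor also found on muscle satellite cells, had 2.68, 2.31 and 2.28 FPKM at 0 d, 4.26, 4.58 and 4.47 at 3 d, then 0.45, 0.38 and 0.31 at 6 d, and finally 0.19, 0.15 and 0.28 at 9 d. ID3, an inhibitor of basic helix-loop-helix factors, had means of 28.6, 43.3, 13.9 and 9.95 FPKM at 0, 3, 6 and 9 d. The ephrin receptor EPHB4 had means of 14.9 FPKM at 3 d and 5.55 at 9 d, the vitamin C transporter SLC23A2 21.6 and 12.5, and TSPYL4 234 and 85.7. All 5 were highest at 3 d and lowest at 9 d by their means.

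**Figure D4:**
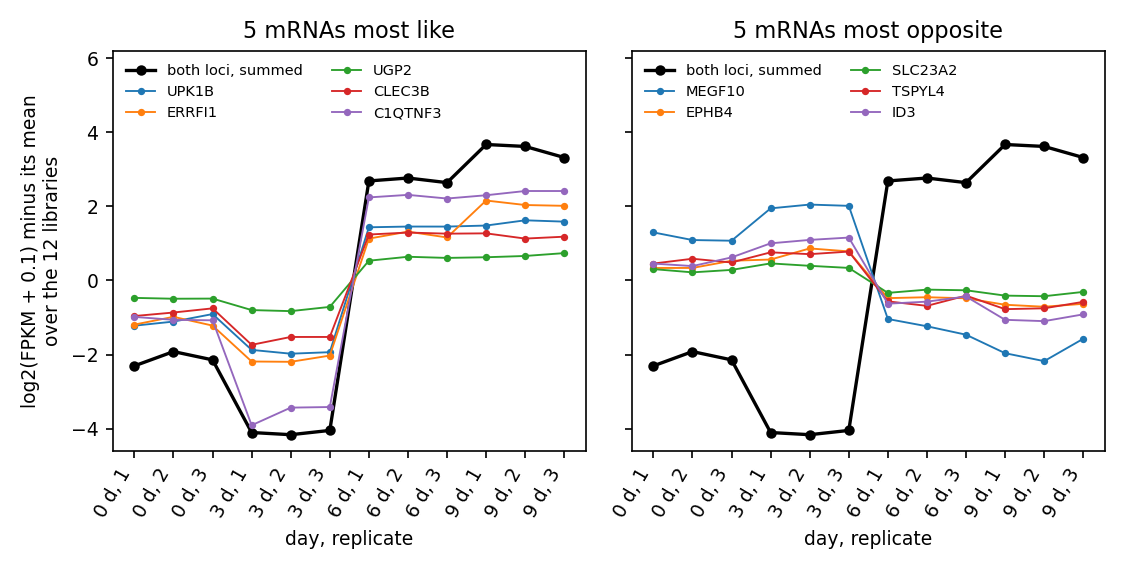
The log2(FPKM + 0.1) of the 2 loci summed (black) and of the 5 mRNAs most like them (left) or most opposite to them (right), each minus its own mean over the 12 libraries. The like mRNAs share the lowest values at 3 d, with a smaller range than the loci.

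Among the other 2449 lncRNA loci with a mean of at least 1 FPKM, the 5 most like the pair were MSTRG.5175, MSTRG.8736, MSTRG.15545, MSTRG.13662 and MSTRG.10952, with r from 0.951 to 0.983. Locus MSTRG.8736 is thus named both by its number and by its values. Locus MSTRG.5175 had means of 0.723, 0.08, 8.46 and 8.35 FPKM at 0, 3, 6 and 9 d, and locus MSTRG.15545 had 0.0467, 0.03, 1.64 and 4.44. Means of locus MSTRG.13662 were 0.277, 0.0367, 4.02 and 2.1 FPKM, and those of locus MSTRG.10952 were 0.970, 0.127, 2.51 and 4.51. Each was lowest at 3 d, and the means of MSTRG.5175 and MSTRG.13662 at 9 d were below those at 6 d, unlike the pair.

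Of the 649 miRNA rows with a mean normalized signal of at least 10, the 3 most like the loci were chi-miR-143-5p, bta-mir-7862-p5 and bta-miR-455-3p_1ss22TC, named as deposited, with r of 0.970, 0.961 and 0.947. Their mean signals at 3, 6 and 9 d were 114, 424 and 455 for the first, 99.8, 329 and 422 for the second, and 726, 2146 and 2125 for the third. For each of the 3 miRNAs the 3 d mean was the lowest of the 4 days. The mean of bta-miR-455-3p_1ss22TC at 9 d was slightly below that at 6 d, unlike the loci. These signals were normalized apart from the FPKM. By rank (Spearman's rho over the 12 libraries) the likeness was lower, at 0.769, 0.909 and 0.888.

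Adipocyte markers are given as context for the cultures in which the loci were measured. Of a list of 25, 23 were in the mRNA table and 22 were tested. CIDEC, CEBPA, AQP7, THRSP and PCK1 stayed under 1 FPKM in every library, and RETN was listed at 0 in each. ADIPOQ and LIPE reached at most 1.64 and 2.06 FPKM. At 3 d vs. 0 d 14 of the 22 rose and 2 fell (LEP and CIDEA), beside 23.3% of the 15402 tested mRNAs called in either direction. At 6 d vs. 0 d 9 rose beside 11.4%, and at 9 d vs. 0 d again 9 rose beside 10.9%, with none called lower. At 9 d vs. 6 d 3 were higher (LEP, LPL and CD36) and 2 lower (FABP4 and PCK1) beside 4.43%. The median log2 changes of the list were 1.56, 0.90 and 0.56 vs. 0 d and -0.05 at 9 d vs. 6 d, beside -0.06, -0.15, -0.19 and -0.04 over all tested mRNAs. The median log2 change of the list was therefore highest on the day on which the loci were lowest. Its members did not all follow that course. The means of LEP, ACSL1, CD36, PLIN4 and CIDEC were highest at 9 d, and those of CIDEA and AQP7 at 0 d. Rescaling moved the median of all mRNAs by 0.15 at 6 d and 0.19 at 9 d vs. 0 d, and the higher share of all calls from 29.8% to 40.4% and from 31.3% to 46.4%.

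Among the 8 adipocyte markers most abundant at 9 d, leptin (LEP), the hormone of fat cells, had the order of days of the loci. It had 2.17, 2.39 and 2.47 FPKM at 0 d, 0, 0.21 and 0 at 3 d, then 9.97, 8.60 and 5.50 at 6 d, and lastly 25.3, 16.6 and 19.6 at 9 d. LEP fell at 3 d vs. 0 d (log2 -4.06, limma adjusted p = 1.49e-05) and rose at 9 d vs. 0 d (log2 3.06, limma adjusted p = 0.000262), with 3 of 3 libraries on that side both times. LEP was near 0 at 3 d, and its log2 change there ran from -6.39 to -1.65 over the alternatives other than leaving out 1 library. At 9 d vs. 6 d its log2 change of 1.36 just passed (limma adjusted p = 0.0404), and that call did not hold: it was lost in 9 of 12 fits that each left out 1 library, those without a library of 0 d, 6 d or 9 d, with adjusted p from 0.0525 to 0.132. The same call was lost with a pseudocount of 0.01 (limma adjusted p = 0.388), without the filter on low values (0.0581) and with a replicate block (0.0545). Its rise at 6 d vs. 0 d (log2 1.69, limma adjusted p = 0.00895) was lost with a pseudocount of 0.01 (0.213). The r of LEP with the loci over the 12 libraries was 0.921.

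FABP4, the fatty acid carrier of adipocytes, had 94.7, 86.2 and 92.3 FPKM at 3 d and 7.59, 8.84 and 10.8 at 9 d, after 3.36, 3.02 and 3.52 at 0 d. It rose at 3 d vs. 0 d (log2 4.75, limma adjusted p = 7.43e-10) and fell from 6 d to 9 d (log2 -1.54, limma adjusted p = 1.8e-05), each in 3 of 3 libraries, while the loci had lower values at 3 d and higher values at 9 d. The lipid droplet coat protein PLIN2 had means of 130.0, 668, 245 and 218 FPKM at 0, 3, 6 and 9 d, and the desaturase SCD 27.1, 275, 216 and 109. DGAT2, which completes triglyceride synthesis, had means of 0.0733, 21.8, 8.27 and 9.25 FPKM. For fatty acid synthesis, FASN had means of 1527, 2971, 1829 and 1766 FPKM and ACACA 14.4, 25.5, 14.7 and 12.1. PLIN2, SCD, DGAT2, FASN and ACACA thus had their highest means at 3 d, although FASN (log2 0.96) and ACACA (log2 0.82) missed the call there on size. Without replicate 1 of 3 d, FASN was called (log2 1.03, limma adjusted p = 7.06e-06). Over the alternatives other than leaving out 1 library its log2 change ran from 0.96 to 1.04, so the miss on size depends on the setting. ACSL1, which activates fatty acids, had 43.8, 32.5, 38.9 and 49.6 FPKM, within a log2 change of 1 of 0 d on each day.

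**Figure D5:**
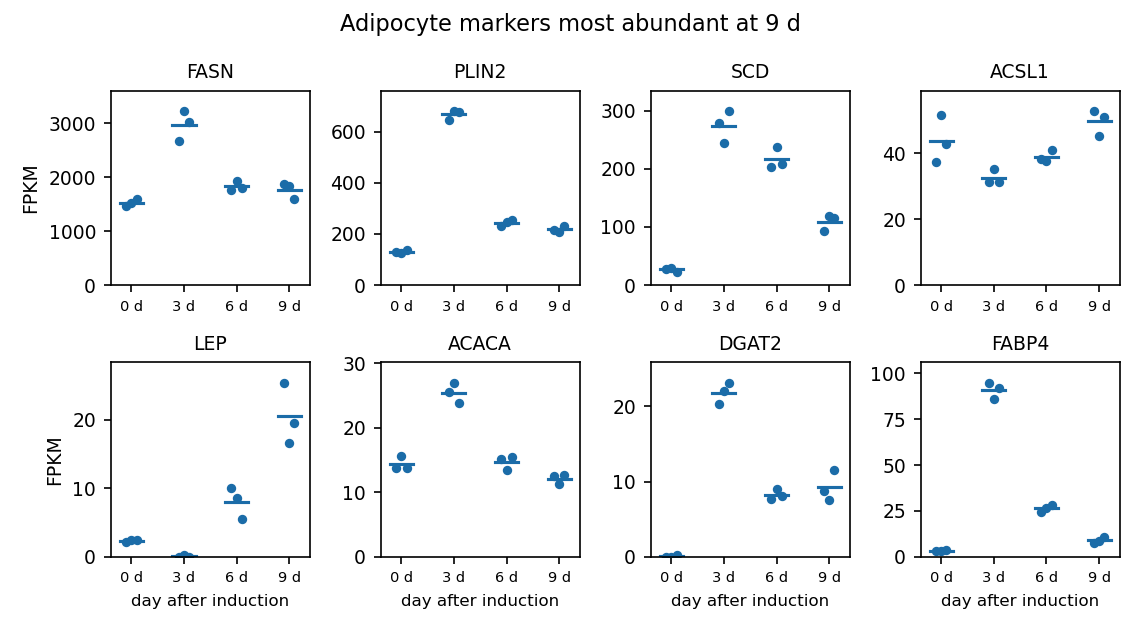
FPKM of the 8 adipocyte markers most abundant at 9 d, by day, with 1 point for each library and a bar at the mean of the 3 replicates (axes start at 0 and differ in scale). LEP is near 0 at 3 d and reaches 16.6 to 25.3 FPKM at 9 d, while FABP4 is highest at 3 d (86.2 to 94.7 FPKM).

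Other lists moved over the same days, and their part in the values of the loci was not tested. Of all tested mRNAs, 15.2%, 7.97% and 7.47% were called lower and 8.06%, 3.39% and 3.41% higher at 3, 6 and 9 d vs. 0 d. Beside these shares, 8, 6 and 7 of the 10 tested skeletal muscle markers were called lower and 0 higher. At 9 d vs. 6 d, where 2.55% of all mRNAs were called higher and 1.89% lower, 1 of the 10 was higher. Their summed FPKM was 920, 961 and 1057 at 0 d, 292, 318 and 316 at 3 d, then 430, 412 and 454 at 6 d, and finally 360, 327 and 363 at 9 d, with DES the most abundant. MYOD1, the myogenic regulator, had 239.8, 260.2 and 303 FPKM before induction and 56.6, 43.2 and 63.8 at 9 d, so muscle lineage markers were well above 0 in cells labelled as preadipocytes. Smooth muscle and pericyte markers summed to 2091, 2114 and 2265 FPKM at 0 d and 114, 122 and 108 at 3 d. They stood at 2064, 2214 and 2201 at 6 d and 877, 814 and 903 at 9 d, mostly from ACTA2. Beside the same shares of all mRNAs, 4 of the 5 tested fell vs. 0 d at 3 d, 2 rose and 1 fell at 6 d, and 2 fell at 9 d, and between the late days 3 fell. This list was thus low at 3 d like the loci, but its sum at 6 d overlapped that of 0 d and at 9 d lay below it.

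All 5 tested genes of the glucocorticoid response were higher at 3 d and at 6 d vs. 0 d and 2 at 9 d, and 3 fell from 6 d to 9 d. Of all tested mRNAs 8.06%, 3.39% and 3.41% were higher vs. 0 d and 1.89% lower at 9 d vs. 6 d. The list's sum was 1110, 1034 and 965 FPKM at 3 d, then 859, 964 and 987 at 6 d, and lastly 476, 489 and 460 at 9 d, after 293, 272 and 309 at 0 d, with DUSP1 the most abundant. Preadipocyte and fibroblast markers, with COL1A2 the most abundant, summed to 14935, 14765 and 14305 FPKM at 0 d, 6535, 7465 and 7071 at 3 d, then 17306, 16852 and 17859 at 6 d, and finally 20229, 17520 and 17997 at 9 d. Vs. 0 d, 2 of the 10 tested rose and 5 fell at 3 d, 1 rose and 4 fell at 6 d, and 2 fell at 9 d, beside 15.2%, 7.97% and 7.47% of all mRNAs called lower. Between the late days 2 rose, beside 2.55% of all mRNAs. This sum, too, was lowest at 3 d. Of the 11 markers, DLK1, CD34 and DPP4 stayed under 1 FPKM in every library, while PDGFRA was at 148 to 963 FPKM, PDGFRB at 206 to 636, THY1 at 32.6 to 135 and ZNF423 at 12.1 to 67.8. At 3 d vs. 0 d the genes that fell were FAP (log2 -3.50), CD34 (-1.85), COL1A1 (-1.68), PDGFRB (-1.38) and COL1A2 (-1.18), with limma adjusted p from 1.04e-09 to 3.64e-05 and 3 of 3 libraries lower for each. Those that rose were PDGFRA (log2 2.54, limma adjusted p = 2.51e-10) and THY1 (log2 1.85, limma adjusted p = 2.67e-08), in 3 of 3 libraries each.

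Most markers of endothelial and blood cells stayed under 1 FPKM in every library, while VWF, TEK and CD14 reached 2.58, 1.64 and 2.66 FPKM. Endothelial markers summed to 2.47 to 3.51 FPKM in the 12 libraries, with VWF the most abundant, and PECAM1, CDH5, KDR and EMCN stayed under 1 FPKM in each. Of these, 2 of 6 were tested, and limma called 0 in each comparison, with 2, 0, 1 and 1 at an unadjusted p under 0.05 at 3, 6 and 9 d vs. 0 d and at 9 d vs. 6 d. Of all tested mRNAs, 57.3%, 43.1%, 45.3% and 32.0% were under that p. Blood and immune markers summed to 1.10 to 3.69 FPKM, mostly CD14, and PTPRC and HBB were listed at 0 in every library. Of 3 tested, 2 rose at 3 d and 1 at 9 d vs. 0 d, beside 8.06% and 3.41% of all mRNAs called higher, and limma called 0 at 6 d vs. 0 d and at 9 d vs. 6 d, with 1 at an unadjusted p under 0.05 each time.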

How the data were processed

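The day given in the labels set the groups. For lncRNAs and mRNAs the authors mapped reads to the bovine genome and assembled transcripts, and the deposited values are FPKM. By the study's methods lncRNAs were assembled transcripts that overlap no known mRNA and pass filters on length and coding potential, from strand-specific libraries after rRNA depletion. The labels describe poly(A) selection. For miRNAs the deposited signal is the read number scaled by the authors. The submitters' processing notes list HISAT2 2.0, StringTie 1.3.0 and Bowtie 0.12.2 with a build name that is not bovine.

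Transcripts were summed by locus number. Fits used limma 3.58.1 (lmFit, contrasts.fit, eBayes with a trend) on log2(FPKM + 0.1), separately for lncRNA transcripts, lncRNA loci and mRNAs with a mean FPKM of at least 0.1, over the whole set of 12 libraries, 1 mean per day. Fold changes on that scale understate those of low features. Features whose mean is exactly 0.1 were at first lost to rounding, and the filter was corrected after the first fits had been seen, on noticing that the number of tested transcripts differed by 1 from the earlier results, which added MSTRG.11965.5 and RASEF. R 4.3.3, Python 3.11.15, NumPy 2.4.6, pandas 2.3.3, SciPy 1.17.1 and Matplotlib 3.10.9 were used, and the fit was tested on simulated data.

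The members and lists were chosen with earlier results of these data known. Named were the 6 most abundant transcripts, loci within 3 numbers, the RNAs most like or opposite in r, and the 8 adipocyte markers most abundant at 9 d. Genome positions of the loci were not used here, and mRNAs near them, circRNAs and sequences were not analysed here. PLIN1, PPARG, PAX7 and KLF9, which belong to the marker lists, were not analysed here. Alternatives were the pseudocount, the filter, rescaling, the libraries in the fit, a replicate block, leaving out each library, and the leading transcript in place of the sum.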

Additional observations from a re-analysis of the deposited data

How the results depend on the processing

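Neither locus was called at 9 d vs. 6 d under any alternative run. Over the 12 fits without 1 library each, the log2 change ran from 0.59 to 0.86 for locus MSTRG.8734 and from 0.80 to 0.97 for locus MSTRG.8735 (limma adjusted p from 0.107 to 0.614 and from 0.00883 to 0.0442). For locus MSTRG.8734 the leading transcript alone gave 1.10 (limma adjusted p = 0.516). Called members stayed at 0 at 9 d vs. 6 d. In the fits without 1 library they numbered 2 to 2, 7 to 10 and 11 to 15 at 3, 6 and 9 d vs. 0 d.

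With a pseudocount of 1, called members numbered 1, 6 and 8 at 3, 6 and 9 d vs. 0 d, in place of 2, 9 and 14. Called adipocyte markers then numbered 10, 5 and 5 on these days vs. 0 d, in place of 16, 9 and 9. At 9 d vs. 6 d the called adipocyte markers numbered 3, in place of 5. A larger pseudocount shrinks the log2 changes of low features by construction. Whether that is the whole cause was not tested. With a mean FPKM of at least 1, 6 members were tested, which pass through the late days they were chosen on, so that their 6 calls at 9 d vs. 0 d say nothing further, and called adipocyte markers numbered 10, 5 and 5 of 13 tested vs. 0 d. Without 1 library the adipocyte counts ran from 14 to 17, 8 to 10, 8 to 9 and 4 to 5.

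With a replicate block, the log2 changes at 9 d vs. 6 d were 0.74 and 0.87 (limma adjusted p = 0.365 and 0.0261), and called members numbered 2, 8 and 13 vs. 0 d. Deviations from the day means of same-numbered libraries had r of -0.0757 to 0.0947 over mRNAs in 18 pairs, 0 of them over 0.1. Over lncRNA loci r was -0.21 to 0.17 (median 0.0406), with 4 of the 18 over 0.1, beside 4 of 36 pairs with different numbers (median -0.0216). Whether the numbers pair the libraries is not given in the labels.

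At 3 d vs. 0 d the log2 change of MSTRG.8734 was -0.56 with a pseudocount of 1, in place of -1.56. The locus was chosen with its FPKM on both days known. These values therefore describe the pattern, and no call is read from them. Counting each gene or locus in each comparison under each alternative, a call was lost 27 times and gained 3 times for the 4 neighbouring loci, and lost 13 times and gained 7 times for the 8 named adipocyte markers, with LEP at 9 d vs. 6 d in most of the losses.

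In alternatives chosen after seeing the data, 6 of the 10 mRNAs and 2 of the 5 lncRNA loci most like the pair were shared with a pseudocount of 1, and 6 and 3 after rescaling. The mRNAs near the loci, with windows of either width, were not run. FPKM hold no depth, so values near 0 cannot be given a limit.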
